A study of Nicotiana tabacum with 2 samples.

Results

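In 2368 places of the tobacco genome both auxin concentrations gave an accessible region. The summit, the point of highest fragment pileup in a region, lay at least 150 bp apart in the 2 lists. Each such shifted pair consists of 1 region of the 0.5 mg/L list and 1 region of the 0.1 mg/L list. Pairs were chosen by 4 measured values. The regions lay on chromosomes 1 to 19, overlapped by at least 1 bp with no other partner on either side, the 0.1 mg/L region was narrower than 800 bp, and the summits were at least 150 bp apart. The first 3 conditions left 14900 pairs, of which 2368 (15.9%) met the last, and because distance defined the group this share is a description only. The shifted pairs held 7.44% of the 31830 regions at 0.5 mg/L and 5.99% of the 39523 regions at 0.1 mg/L.

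The study applied ATAC-seq to callus of tobacco explants on medium with 0.5 or 0.1 mg/L naphthaleneacetic acid (NAA), a synthetic auxin, with 1 library and 1 region list for each concentration. The labels give 3 weeks of culture at 0.5 mg/L but 2 weeks at 0.1 mg/L, so concentration and the labelled time cannot be told apart, although the methods of the study name 1 time for both. The methods name Nicotiana benthamiana, whose Niben261 assembly the coordinates follow, while the labels name N. tabacum and mention fixation and sonication beside Tn5. A library was made from many explants together, without replicates, so the variation from one library to the next is unknown and no test between concentrations was made. Intervals in parentheses are 95% intervals over regions and cover counting error only. The tissue label was not checked, since genes were not assigned to regions here.

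As background, DNA in the nucleus is wound around histone octamers, and successive nucleosomes follow each other at a fairly regular repeat. In ATAC-seq the transposase Tn5 cuts mainly where nucleosomes are absent or loosened, such as at active promoters and enhancers. How closely the point of highest pileup marks the most exposed stretch was not tested. A summit in a different place means that the highest pileup was found over another stretch of the same neighbourhood. Distances from 150 to under 200 bp, close to 1 nucleosome repeat, were looked at as a class of their own.

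Shifted pairs were most numerous close to the limit. The median distance between summits was 218 bp (214 to 222 bp, n = 2368), with quartiles of 177 and 289 bp and a greatest distance of 809 bp. From 150 to under 200 bp there were 938 pairs (39.6%, 37.6 to 41.6%), from 200 to under 250 bp 557 pairs (23.5%), from 250 to under 300 bp 343 pairs (14.5%), from 300 to under 400 bp 350 pairs (14.8%), and from 400 bp on 180 pairs (7.60%). The class near 1 nucleosome repeat was thus the largest of these, but it was also the nearest to the limit.

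The counts declined through the nucleosome class with small irregularities and no separate peak. In successive steps of 10 bp from 150 bp there were 250, 210, 161, 166 and 151 pairs, and from 200 bp 124, 144, 100 and 98 pairs. Below the limit, at 100 to under 150 bp, there were 1798 pairs. Wide pairs also declined, though less evenly in steps of 10 bp. These were 3639 pairs with an overlap of at least 300 bp and each summit inside both regions, where a nucleosome-sized shift had room. Of these, 12.6% were 100 to under 150 bp apart, 7.03% were 150 to under 200 bp apart and 3.98% were 200 to under 250 bp apart. In 10 bp steps from 170 bp this set held 46, 47, 43, 39 and 44 pairs, then 18 at 220 to under 230 bp. Keeping both summits inside a shared stretch leaves fewer placements at greater distances, so a decline follows in part from this choice. The set therefore cannot show whether a nucleosome-sized peak is absent.

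**Figure D1:**
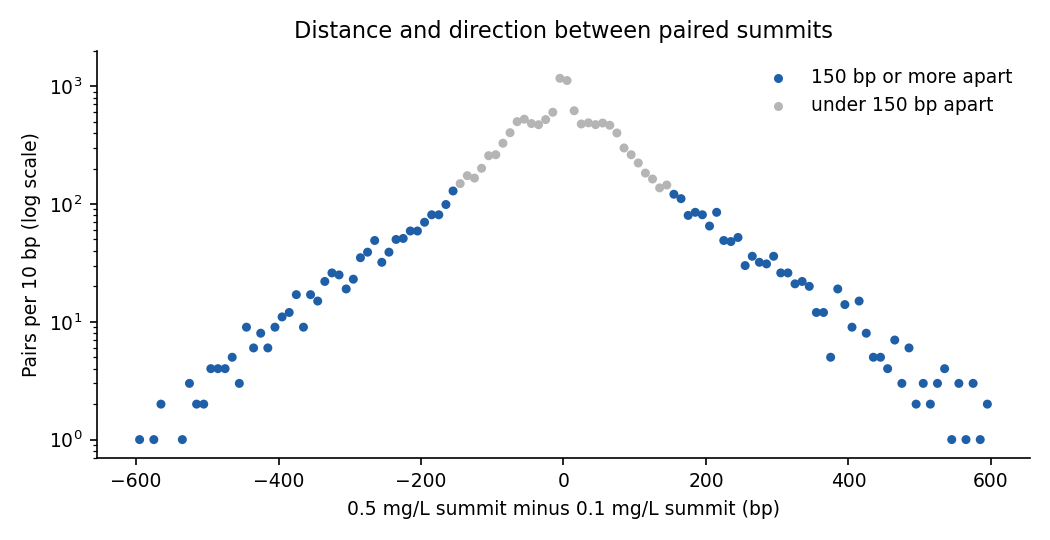
Number of pairs per 10 bp step (log scale) against the position of the 0.5 mg/L summit minus that of the 0.1 mg/L summit, in bp, for all 14900 pairs, leaving out those with identical summits (383) and those 600 bp or more apart (23). Blue points are the shifted pairs, and both sides decline alike with no separate peak near 1 nucleosome repeat.

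The 136 pairs at 150 to 154 bp just inside the limit had median widths of 279 bp (0.5 mg/L) and 402.5 bp (0.1 mg/L), and 79 of them (58.1%) had each summit inside both regions. The 145 pairs at 145 to 149 bp just outside it had median widths of 266 bp (0.5 mg/L) and 376 bp (0.1 mg/L), and 81 (55.9%) had each summit inside both regions. The limit thus divides a continuous range of distances.

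Over all shifted pairs, the shift was close to evenly divided between the 2 directions along the chromosomes. The 0.5 mg/L summit lay at the higher coordinate in 1221 of the 2368 pairs (51.6%, 49.5 to 53.6%), against 48.9% of the 12149 pairs that were 1 to 149 bp apart. By distance the share was 51.0% (47.7 to 54.2%) at 150 to under 200 bp, 53.7% (49.4 to 57.9%) at 200 to under 250 bp, 48.1% (42.7 to 53.5%) at 250 to under 300 bp and 50.6% (45.2 to 55.9%) at 300 to under 400 bp. In these classes the interval included an even split. Among the 58 pairs at 500 bp or more, the 0.5 mg/L summit was at the higher coordinate in 38 and at the lower in 20 (65.5%, 51.9 to 77.5%), 1 of 10 narrow and 5 broad distance classes looked at and singled out after its value was seen. Coordinates run along the assembly and say nothing of the strand of a nearby gene.

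The regions of shifted pairs were wider than those of the other pairs. Summits at least 150 bp apart in overlapping regions need room, so this difference follows in part from how the pairs were chosen. At 0.5 mg/L the median width in shifted pairs was 299 bp (293 to 308 bp), against 263 bp (261 to 265 bp) in the 12532 pairs whose summits were under 150 bp apart. At 0.1 mg/L it was 421 bp (411 to 428 bp) in shifted pairs, against 349 bp (346 to 352 bp) in the others. Of the pairs with a 0.1 mg/L region of 600 to 799 bp, 28.0% (25.7 to 30.4%) were shifted, against 8.59% (7.48 to 9.80%) of those from 207 to 249 bp. The 0.5 mg/L region was typically the narrower one, with a median width ratio of 0.74 (0.72 to 0.76) in shifted pairs and 0.78 (0.77 to 0.79) in the others. It was nevertheless wider than its 0.1 mg/L partner in 600 shifted pairs (25.3%), close to the 23.4% of the other pairs. Regions narrower than 207 bp, which the 0.1 mg/L list lacks, made up 21.6% of the 0.5 mg/L regions in shifted pairs and 25.01% of those in the other pairs. Without these narrow regions the median width ratio of shifted pairs was 0.84 (0.82 to 0.86). The lists also differ in depth, with a lowest local background of 0.172 fragments at 0.5 mg/L and 0.747 at 0.1 mg/L. Concentration, labelled time and depth cannot be told apart in these widths.

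The paired regions covered a smaller part of each other in shifted pairs than in the others. The length in common was similar, with a median of 226 bp (220 to 233 bp) in shifted pairs and 232 bp (230 to 233 bp) in the others. It covered a median of 83.1% of the 0.5 mg/L region in shifted pairs and 96.8% in the others, and 54.6% of the 0.1 mg/L region in shifted pairs and 70.1% in the others. The 0.5 mg/L region lay wholly inside the 0.1 mg/L region in 654 shifted pairs (27.6%, 25.8 to 29.5%), against 41.4% of the other pairs. The reverse nesting was found in 161 shifted pairs (6.80%) and 10.3% of the others. In the remaining 1553 shifted pairs (65.6%, 63.6 to 67.5%) each region had an end outside the other, against 48.3% (47.5 to 49.2%) of the other pairs. The centres of the regions were a median of 108.5 bp apart in shifted pairs and 49.5 bp apart in the others, and they moved in the same direction as the summits in 2082 shifted pairs (87.9%, 86.5 to 89.2%), against 59.96% (59.1 to 60.8%) of the others. Because overlapping regions with distant summits leave little room for centres that move the other way, this share follows in part from how the pairs were chosen. Overlap, nesting and the distance between centres are limited by the same choice, so their differences follow in part from it too.

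Whether each list also called the other summit as accessible divided the shifted pairs into 4 arrangements. In 823 pairs (34.8%, 32.8 to 36.7%) both summits lay inside both regions, against 91.5% of the pairs under 150 bp apart. In 868 pairs (36.7%) only the 0.5 mg/L summit lay inside the other region, against 5.55% of the pairs under 150 bp apart. In 251 pairs (10.6%) only the 0.1 mg/L summit did, against 2.31%. Pairs with only the 0.5 mg/L summit inside thus outnumbered those with only the 0.1 mg/L summit inside in both sets. In 426 pairs (18.0%, 16.5 to 19.6%) neither summit lay inside the other region, against 0.678% of the other pairs. The shared stretch in these 426 pairs was a median of 28.05% of the 0.5 mg/L region and 18.9% of the 0.1 mg/L region. Distance limits which arrangements are possible, and the share with both summits inside both regions was 50.3% (47.1 to 53.6%) at 150 to under 200 bp and 4.44% (1.94 to 8.57%) from 400 bp on. Direction differed between the arrangements. With only the 0.5 mg/L summit inside, that summit was at the higher coordinate in 58.1% of pairs (54.7 to 61.4%). With only the 0.1 mg/L summit inside, the 0.5 mg/L summit was higher in 42.6% (36.4 to 49.0%). The share was 49.3% (45.9 to 52.8%) with both summits inside and 47.9% (43.06 to 52.75%) with neither. The cause of this difference was not tested.

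The excess of pairs with only the 0.5 mg/L summit inside went along with the wider 0.1 mg/L regions. Among the 370 shifted pairs whose widths differed by at most 10%, only the 0.5 mg/L summit lay inside in 34 (9.19%, 6.45 to 12.6%), and only the 0.1 mg/L summit in 44 (11.9%, 8.78 to 15.6%). In that group 227 pairs (61.4%) had both summits inside both regions.

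**Figure D2:**
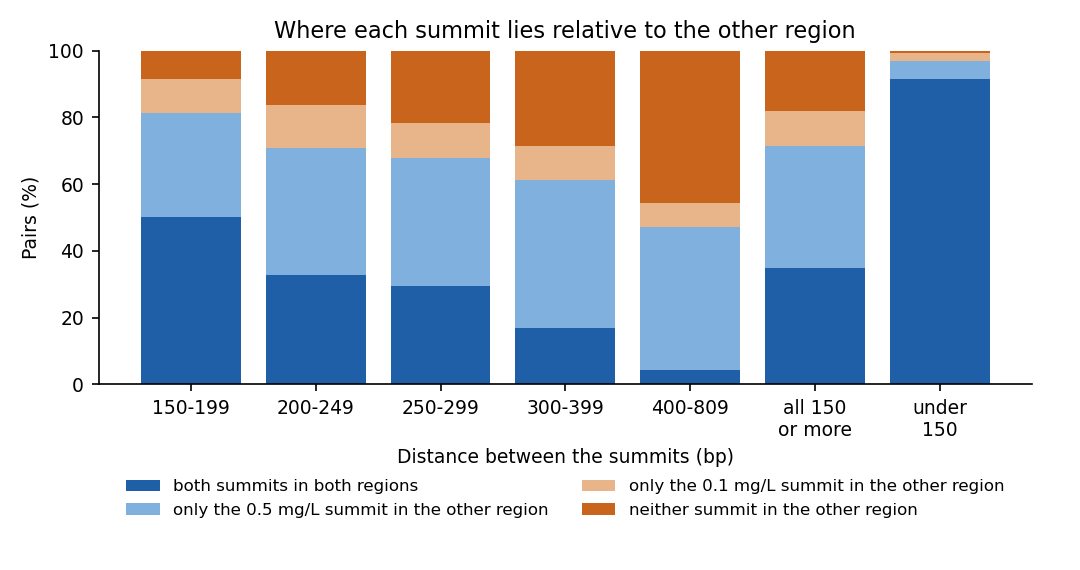
Percent of pairs in each of 4 arrangements (stacked to 100%) against the distance between the summits in bp, with all shifted pairs and the pairs under 150 bp apart at the right. Both summits were inside both regions in 50.3% of the pairs from 150 to under 200 bp and in 34.8% of all shifted pairs, against 91.5% of the pairs under 150 bp apart.

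A smaller group had nearly the same interval in both lists with a different summit. In 219 shifted pairs (9.25%, 8.11 to 10.5%) both ends agreed within 50 bp, against 22.8% (22.0 to 23.5%) of the other pairs. Their centres were a median of 11.5 bp apart and their summits 191 bp (186 to 202 bp) apart, with 122 of the 219 at 150 to under 200 bp. Median widths were 356 bp (0.5 mg/L) and 365 bp (0.1 mg/L), against 276 and 280 bp in pairs with like ends and nearer summits. With like ends and summits this far apart, at least 1 summit of a pair has to lie off centre, so the following values describe the choice of pairs. The distance from summit to nearer end was a median of 23.0% of the width at 0.5 mg/L and 20.8% at 0.1 mg/L, against 35.7 and 35.4% in the pairs with like ends and nearer summits.

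Summit pileup in shifted pairs was lower than in the other pairs, but not lower than in the lists as a whole. The number of fragments at a summit was worked back from the deposited fold and p-value of the region. The median summit pileup in shifted pairs was 7 fragments at 0.5 mg/L (quartiles 5 and 10), against 10 (7 and 14) in the pairs under 150 bp apart. At 0.1 mg/L it was 11 fragments (9 and 15) in shifted pairs, against 14 (11 and 19) in the others. Over all regions of the lists the median was 7 (0.5 mg/L) and 10 fragments (0.1 mg/L). A Poisson count of 7 has an exact 95% interval of 2.81 to 14.4, and one of 11 an interval of 5.49 to 19.7. A summit is the highest point of a region that passed the q-value threshold, so these intervals do not give the spread of its pileup. Pileup at other points of a region was not analysed here, so the error of a single summit position is unknown.

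The share of shifted pairs fell with summit pileup at every width. Of the pairs with a 0.5 mg/L pileup under 6 fragments, 27.8% (25.9 to 29.6%) were shifted, and of those with 20 or more, 4.28% (3.24 to 5.54%). By the 0.1 mg/L pileup the share was 28.9% (26.6 to 31.2%) under 9 fragments and 4.07% (2.94 to 5.48%) at 25 to 39. Among 0.1 mg/L regions of 400 to 499 bp the share was 28.0% (25.1 to 31.1%) at a 0.5 mg/L pileup under 8, 17.1% (15.1 to 19.3%) at 8 to 14, and 6.60% (4.78 to 8.85%) at 15 or more. Among those of 600 to 799 bp it was 42.1% (37.2 to 47.1%), 26.6% (23.4 to 30.0%) and 15.7% (12.2 to 19.8%) in the same order. With at least 15 fragments at both concentrations, a bound added once the values were known, 146 of 2697 pairs (5.41%) were shifted. Of these 146, 84 (57.5%) were 150 to under 200 bp apart and 121 (82.9%) had both summits inside both regions. Depth and width moved with the share of shifted pairs, and their part in it was not tested.

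**Figure D3:**
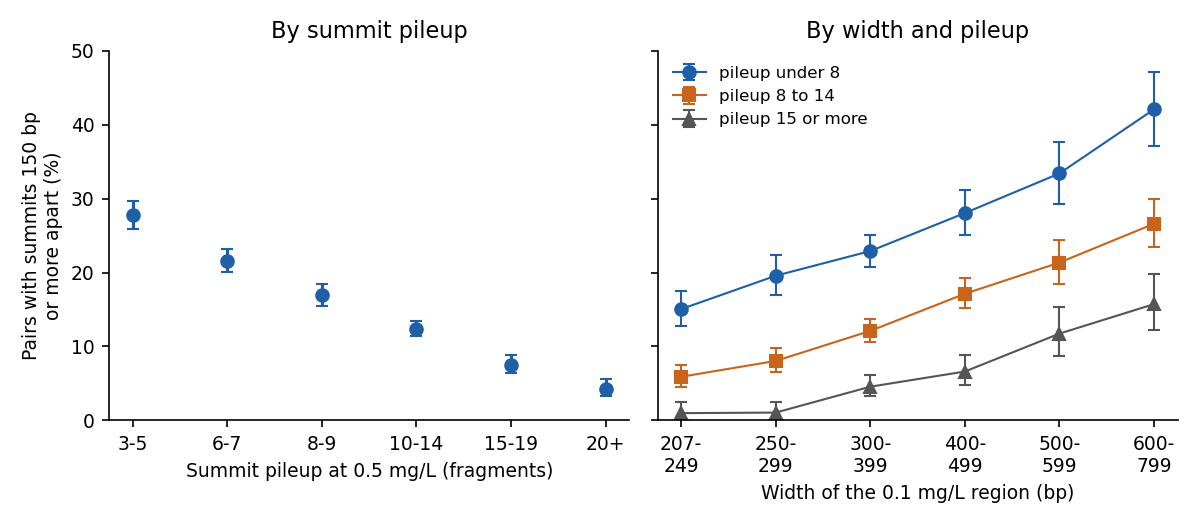
Percent of pairs with summits 150 bp or more apart against summit pileup at 0.5 mg/L in fragments (left) and against the width of the 0.1 mg/L region in bp for 3 classes of that pileup (right). Bars are exact 95% intervals over pairs, and the share was 27.8% under 6 fragments and 4.28% at 20 or more, and was higher for wider regions in each class.

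By strength within their own lists the shifted pairs were near the middle at 0.5 mg/L and above it at 0.1 mg/L. The median percentile of the −log10 q-value was 48.8 (47.3 to 50.4) in the 0.5 mg/L list and 60.6 (58.8 to 61.7) in the 0.1 mg/L list, against 69.3 and 77.0 in the pairs under 150 bp apart. The median fold over local background was 5.81 at 0.5 mg/L in shifted pairs, against 7.28 in the others, and 5.01 at 0.1 mg/L in shifted pairs, against 5.83 in the others. Only 77 shifted pairs (3.25%) reached a −log10 q-value of 10 in both lists, against 2047 of the others (16.3%). Strength varied with the arrangement. Shifted pairs with both summits inside both regions had median pileups of 9 (0.5 mg/L) and 14 fragments (0.1 mg/L), and those with neither inside had 6 and 10.

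The strongest shifted pairs were broad regions with clear support at both concentrations. The first, on chromosome 6, ran over chr6:86706542-86707253 at 0.5 mg/L with its summit at 86706818 and a pileup of 51 fragments, and over chr6:86706625-86707320 at 0.1 mg/L with its summit at 86707031 and a pileup of 62. Its summits were 213 bp apart, the 0.5 mg/L summit at the lower coordinate, and its −log10 q-values of 41.1 (0.5 mg/L) and 40.3 (0.1 mg/L) were at percentiles 99.6 and 99.7 of their lists. The second, also on chromosome 6, ran over chr6:49316289-49316888 at 0.5 mg/L (30 fragments, fold 13.3) and chr6:49316279-49317067 at 0.1 mg/L (44 fragments, fold 10.0). Here the 0.5 mg/L summit lay 215 bp higher, and the whole 0.5 mg/L region was inside the other. In both pairs each summit lay inside both regions.

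The strongest pairs in the nucleosome class had the same arrangement. On chromosome 8 the region chr8:129283379-129283734 at 0.5 mg/L (22 fragments, −log10 q-value 19.98) lay inside chr8:129283348-129283889 at 0.1 mg/L (30 fragments, 20.99), with the 0.5 mg/L summit 150 bp higher, exactly at the limit. This pair was the third strongest of all. On chromosome 1 the regions chr1:102392500-102392916 at 0.5 mg/L and chr1:102392500-102392926 at 0.1 mg/L began at the same base and ended 10 bp apart, yet the 0.5 mg/L summit (27 fragments) lay 170 bp lower than the 0.1 mg/L summit (31 fragments). The fold there was 13.3 at 0.5 mg/L and 9.20 at 0.1 mg/L. Also on chromosome 8, chr8:126732250-126732712 at 0.5 mg/L (24 fragments) lay inside chr8:126732222-126732807 at 0.1 mg/L (25 fragments), with the 0.5 mg/L summit 152 bp lower.

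The pairs with the greatest distances overlapped at one end. On chromosome 14, chr14:18544150-18544755 at 0.5 mg/L and chr14:18543806-18544246 at 0.1 mg/L shared 97 bp, and their summits were 809 bp apart with pileups of 7 (0.5 mg/L) and 8 fragments (0.1 mg/L). Their −log10 q-values were mid-list, at percentile 57.1 of the 0.5 mg/L list and 52.9 of the 0.1 mg/L list. The next were both 756 bp apart with the 0.5 mg/L summit at the lower coordinate. These were chr5:114676789-114676972 at 0.5 mg/L with chr5:114676918-114677673 at 0.1 mg/L, and chr15:112534685-112534921 at 0.5 mg/L with chr15:112534780-112535547 at 0.1 mg/L. In each the summit held 3 fragments at 0.5 mg/L and 7 at 0.1 mg/L. In none of the 3 did a summit lie inside the other region.

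Among pairs with neither summit inside the other region, the strongest was on chromosome 7. It joined chr7:103700177-103700733 at 0.5 mg/L (11 fragments, −log10 q-value 7.27) with chr7:103700712-103701281 at 0.1 mg/L (17 fragments, 6.83), which shared 22 bp and had summits 640 bp apart. The second, on chromosome 1, joined chr1:2014927-2015122 at 0.5 mg/L (9 fragments, 6.93) with chr1:2015043-2015588 at 0.1 mg/L (14 fragments, 6.37), which shared 80 bp and had summits 445 bp apart. The shared stretch was 3.95% of the 0.5 mg/L region in the chromosome 7 pair and 40.8% in the chromosome 1 pair.

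**Figure D4:**
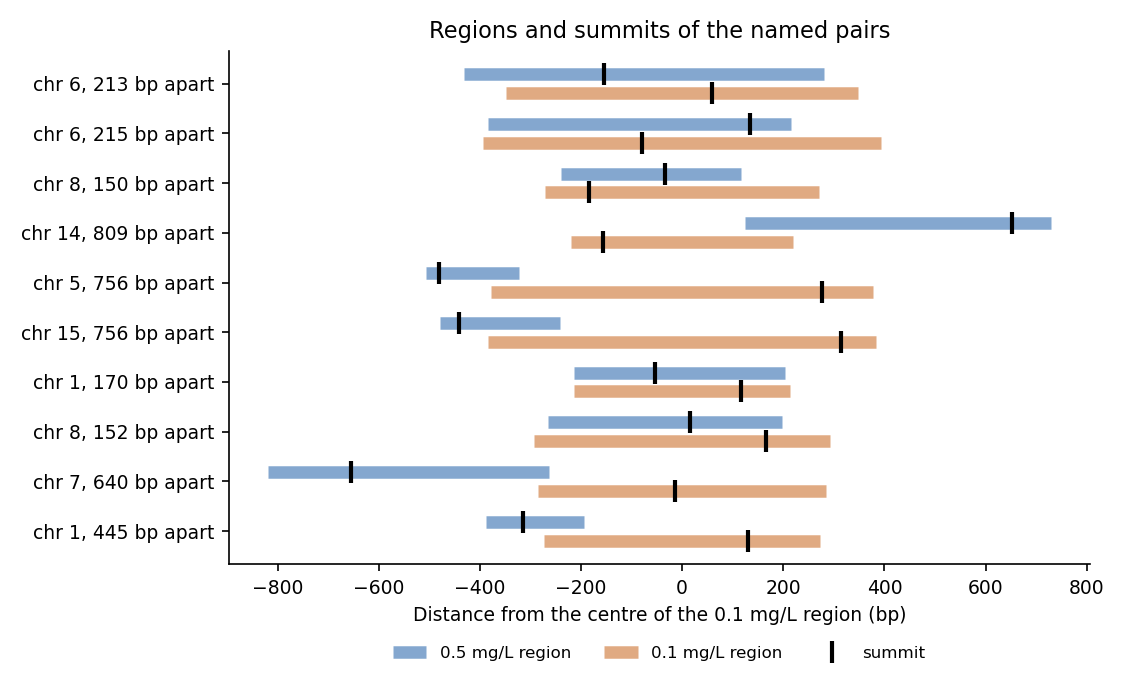
The 10 named pairs drawn to scale in bp from the centre of the 0.1 mg/L region, with the 0.5 mg/L region above (blue), the 0.1 mg/L region below (orange) and a black mark at each summit. The strongest pairs overlap over most of their length, whereas the pairs with summits 445 to 809 bp apart overlap at one end.

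Shifted pairs were spread over all 19 chromosomes. Their number ran from 102 on chromosome 18 to 147 on chromosome 1. The share of pairs that were shifted was highest on chromosome 11, with 127 of 698 (18.2%, 15.4 to 21.3%), and lowest on chromosome 3, with 137 of 985 (13.9%, 11.8 to 16.2%). The interval of every one of the 19 chromosomes included the share over all of them. The median distance ranged from 196.5 bp (190 to 215 bp) on chromosome 18 to 247 bp (220 to 274 bp) on chromosome 4. Both are extremes of the 19 chromosomes, picked after their values were seen. On chromosome 8 the 0.5 mg/L summit was at the higher coordinate in 93 of 146 shifted pairs (63.7%), and on chromosome 13 in 50 of 121 (41.3%), the extremes of the 19 and picked after their values were seen.

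**Figure D5:**
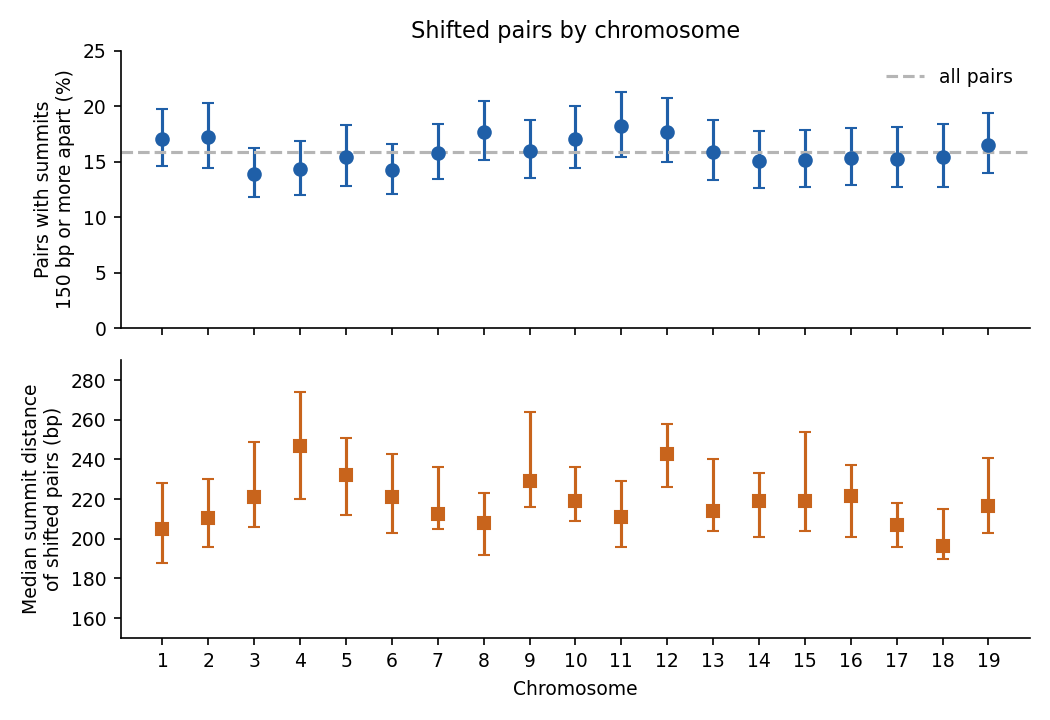
Percent of pairs that were shifted (top, with the share over all pairs as a dashed line) and median summit distance of the shifted pairs in bp (bottom, axis from 150 bp) for each of the 19 chromosomes. Bars are 95% intervals over pairs, and the share ranged from 13.9% on chromosome 3 to 18.2% on chromosome 11.

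Position along the chromosomes made little difference. With each chromosome divided into 10 equal parts up to its last region, the share of shifted pairs ranged from 14.4% (12.7 to 16.4%) in the sixth part to 17.7% (15.7 to 19.7%) in the fourth. It was 17.2% in the first and 15.3% in the last part. Neighbouring shifted pairs lay a median of 826 kb apart (quartiles 306 and 1633 kb), and 36 of the 2349 gaps between them were under 10 kb. Another summit of either list lay within 1 kb of 187 shifted pairs (7.90%, 6.84 to 9.06%), against 5.67% (5.28 to 6.09%) of the pairs under 150 bp apart.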

How the data were processed

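The authors trimmed paired-end ATAC-seq reads with Trimmomatic (0.39, per the submitters' processing notes), aligned them to the Nicotiana benthamiana genome with BWA and called regions in each library separately with MACS2 (2.2.7.1) at a q-value under 0.05. A control, duplicate handling, the Tn5 offset and the mode of the caller are not given in the sources used here. That a unit of pileup is a fragment is therefore assumed. The whole-number score deposited beside each region is a multiple of its −log10 q-value and was not used. The deposited ratio (fold) divides summit pileup by the expected local background, each with 1 added as pseudocount. The deposited −log10 p-value and −log10 q-value belong to the summit. Start, end and summit were taken as deposited and are printed counted from 1.

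Regions were paired and described with Python 3.11.15, pandas 2.3.3, numpy 2.4.6 and scipy 1.17.1. The whole-number pileup was solved from fold and −log10 p-value (tolerance 0.001, or 0.0001 of the value where larger), which succeeded for all shifted pairs and for 99.9% of each list. The lists had a median pileup of 7 fragments at 0.5 mg/L and 10 at 0.1 mg/L, and a lowest background of 0.172 and 0.747 fragments in the same order, so they differ in depth. Shares have exact Clopper-Pearson intervals, medians have binomial order-statistic intervals. Pairing and pileup recovery were tested on simulated data. No test between concentrations was made, since neither had a second library. The named pairs are the 3 strongest (by the lower of the 2 −log10 q-values), the 3 with the greatest distance, the 3 strongest from 150 to under 200 bp, the 2 strongest in each direction and the 2 strongest with neither summit inside the other region. Chromosomes are named at the extremes of the share, and at those of number, median distance and direction once the values were seen. The members and these rules were chosen with earlier results of these data known. Stricter thresholds, other overlap rules and other limits were tried. No genome of the assembly was used, so no sequences or genes are given.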

Additional observations from a re-analysis of the deposited data

Results flagged for a closer look

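Pairs outside the chromosomes or the width limit were not part of the comparison but held shifted summits too. On unplaced scaffolds 35 of 298 pairs (11.7%, 8.32 to 15.95%) had summits at least 150 bp apart, with a median distance of 215 bp. Among pairs whose 0.1 mg/L region was 800 bp or wider, 177 of 490 (36.1%, 31.9 to 40.6%) did, with a median of 297 bp.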

How the results depend on the processing

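The 7 main values were recomputed under 9 alternatives, and under 2 more (a minimum pileup and a minimum width) chosen after the data had been seen. No paired analysis was possible because there was a single library at either concentration. Of these recomputed values, 39 left the 95% interval of the value reported, and the other 37 stayed inside it. Among those inside it were all values for the direction of the shift and all values with scaffolds or with pairs of several partners included. The cause was not tested where the alternative does not fix it. The error of a summit position was not measured.

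At q-values under 0.001, 13.4% of the pairs were shifted, 42.5% of these were 150 to under 200 bp apart, 30.0% had the 0.5 mg/L region inside the other, and 42.0% had both summits inside both regions. At q-values under 1e-05 (665 shifted pairs in place of 2368) these were 8.79, 48.1, 35.8 and 62.9%, with a median distance of 203 bp and a width ratio of 0.80. With 50% of the narrower region overlapped they were 13.8, 43.1, 33.7 and 42.4%, and the median distance was 211 bp. A fold of at least 4 gave 14.2% shifted and 39.0% with both summits inside both regions. Without the width limit 16.5% were shifted, 30.2% were nested and the width ratio was 0.72.

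A minimum distance of 100 bp gave by construction more shifted pairs (4166), with 28.0% shifted, a median of 161 bp, 22.5% at 150 to under 200 bp, 31.0% nested and 48.6% with both summits inside both regions. A minimum of 200 bp left 1430 pairs, 9.60% shifted, a median of 271 bp, 23.2% nested, a width ratio of 0.72 and 24.6% with both summits inside both regions. At least 15 fragments in both lists gave 5.41% shifted, a median of 192 bp, 57.5% at 150 to under 200 bp, 37.7% nested, a width ratio of 0.86 and 82.9% with both summits inside both regions. A 0.5 mg/L width of at least 207 bp gave 16.5% shifted, a width ratio of 0.84 and 43.7% with both summits inside both regions.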

Other observations

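Overlaps with several partners were left out of the pairs. On the chromosomes 152 regions of the 0.1 mg/L list overlapped more than 1 region of the 0.5 mg/L list, and 18 regions of the 0.5 mg/L list overlapped more than 1 region of the 0.1 mg/L list. In the pairs under 150 bp apart, the count per 10 bp fell to 954 at 40 to under 50 bp, was 1012 at 50 to under 60 bp and 966 at 60 to under 70 bp, and then fell again to 804 and 627, a shoulder far below a nucleosome repeat.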
